A study of Mus musculus with 24 samples.

Results

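The Ly49 receptors are a family of lectin-like molecules on mouse natural killer (NK) cells, encoded by the Klra genes. The 10 members described here were taken from the deposited table by their gene names, out of 45237 genes listed. Klra4 (Ly49D) and Klra8 (Ly49H) encode activating receptors, and the other 8 (Klra1, Klra2, Klra3, Klra5, Klra6, Klra7, Klra9 and Klra17) encode inhibitory ones. The table lists 4 more genes whose name starts with Klra, which are given separately.

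RNA was read from NK cells sorted from the spleens of wild-type C57BL/6J mice, which the study's methods give as females of 7 to 9 weeks. Control mice carried no tumor. The other mice had received RMA or RMA-KR cells through a vein. RMA is a T cell lymphoma line with MHC class I. RMA-KR was made from it by knocking out B2m, so that it lacks MHC class I at its surface, and by adding the NKG2D ligand Rae1-β together with the fluorescent protein ZsGreen. It was grown from a limiting dilution, so that it stands for 1 clone. The study's methods also describe transduction of RMA cells with the ZsGreen vector, followed by subcloning. Of the 24 libraries, 4 came from controls. On day 2 (early), 3 came from RMA and 3 from RMA-KR mice. The intermediate stage was day 4 for RMA (3 libraries) and day 7 for RMA-KR (5 libraries), and the late stage was day 9 for RMA and day 14 for RMA-KR (3 libraries each). The tumors at these later stages therefore differ in the day as well, and the effects of tumor and day cannot be told apart. Between 5138651 and 14863500 reads were counted on genes in a library, with a median of 10489204. Levels are given as normalized CPM, that is, counts scaled with TMM factors to a common total per library.

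Each Ly49 gene is switched on in some NK cells and not in others, so that the spleen holds NK cells with many combinations of these receptors. Most inhibitory members bind classical MHC class I molecules on other cells and hold the NK cell back, which is why a cell that has lost MHC class I becomes a target. The activating members share the same lectin fold but send an opposite signal, Ly49H against cells infected with mouse cytomegalovirus and Ly49D against cells bearing the H-2Dd molecule that C57BL/6J mice do not have.

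The difference in sign is written in short coding stretches, shown here for the activating genes Klra4 and Klra8 and for Klra7 and Klra1, the inhibitory genes with an adjusted p under 0.05 in at least 1 comparison. The inhibitory proteins carry in their cytoplasmic tail an immunoreceptor tyrosine-based inhibitory motif (ITIM), whose phosphorylated tyrosine recruits the phosphatase SHP-1 (Ptpn6). Each stretch holds 30 bases read 5′ to 3′ from the GENCODE vM21 transcripts, and the capitals mark the codon of that tyrosine or the codon aligned with it.
Klra7: caggaggtcactTACtcaactgtgagattt
Klra1: caggaggtcactTATtcaatggtgagattt
Klra4: caggaagacactTTCtcagctgtgagattc
Klra8: caggaggtcactTTCccaactatgagattc
The codon in capitals reads tyrosine in all 8 inhibitory members and phenylalanine in both activating members.

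The activating proteins lack this motif and pair with the adaptors DAP12 (Tyrobp) and DAP10 (Hcst) through a charged arginine inside the membrane. In the next stretches, of 30 bases each from the same transcripts, the capitals mark the codon of that arginine or the codon aligned with it.
Klra4: ctcatttcccttCGActggtaactgttgca
Klra8: ctctgttcccttCGGctggtaattgttgca
Klra7: ctctgtttccttCTCctggtaactgttgca
Klra1: ttctgtttccttCTTctggtagctgtttca
This codon reads arginine in both activating members and leucine in all 8 inhibitory members.

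All 10 genes lie on the minus strand of chromosome 6 (mm10) in the NK gene complex. Among the activating members, Klra4 (ENSMUSG00000079852) from 130043731 to 130067271 and Klra8 (ENSMUSG00000089727) from 130115226 to 130129898 have only the pseudogene Klra11-ps between them among Klra genes. The inhibitory genes described most closely are Klra7 (ENSMUSG00000067599) from 130218605 to 130233322 and Klra1 (ENSMUSG00000079853) from 130363917 to 130386874. The family arose by duplication, and its members share sequence. Reads were sequenced at 50 bases, and trimming can have left some of them shorter. The transcripts were examined in windows of 50 bases for identical stretches in the transcripts of any other gene. Shorter reads can share more than these windows do, so the percentages are upper bounds. Windows found in no other gene made up 95.3% for Klra4, 97.0% for Klra1 and 87.7% for Klra7, whose other 12.3% occurred in the pseudogene Klra13-ps. They made up 79.3% for Klra3, 68.5% for Klra9 and 66.9% for Klra8. Klra8 shared 20.4% of its windows with the pseudogene Klra14-ps, and 13.1% of the windows of Klra9 occurred in Klra3. The levels of Klra8, Klra9 and Klra3, and comparisons among them, are uncertain for this reason. The other members had at least 97.4%.

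The label of the sorted cells was checked against 8 genes that mark NK cells, among them the receptor Ncr1, the cytotoxic proteins Gzma and Prf1 and the factor Eomes. All 8 were above 3 counts in every library, and their summed level ran from 19498 to 36180 normalized CPM, with Gzma as the most abundant. Summed markers of other cells were far lower. The plasmacytoid dendritic cell sum was 198.5 to 432.6 normalized CPM, mostly Irf7, and was the highest of these except in RMA-KR intermediate 4. There it was 232.9, against 240.2 for innate lymphoid cells type 1. The T cell sum was 78.6 to 212.5 normalized CPM, mostly Cd28, and Cd3e, Cd4, Cd8a, Cd8b1 and Cd5 were at the floor, that is, at 3 counts or fewer in at least 12 of 24 libraries. Cd3d (0.966 to 30.6) and Trac (4.99 to 19.9) were above 3 counts in all of them. The sum for innate lymphoid cells type 1 was at most 240.2 and that for macrophages and monocytes at most 80.1. Granulocyte markers (0 to 17.4) and red cell markers (0.0982 to 16.4) were at the floor for 10 of 10 and 8 of 8 genes.

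Control 4 and RMA-KR intermediate 3, 4 and 5 stood apart from the other 20 libraries. Their levels of the immediate early genes Fos (67.3 to 88.3 normalized CPM), Jun (91.2 to 155.4) and Dusp1 (130.3 to 156.3) lay below all others, where Fos was at least 402.9, Jun at least 362.8 and Dusp1 at least 746.8. These genes were chosen after their values were seen. In the same 4 libraries the NK marker sum was 22726, 20521, 20977 and 19498 normalized CPM, among the 6 lowest of all libraries. The sum of markers of innate lymphoid cells type 1, in which Il7r was the most abundant, was the highest there, at 167.5, 144.6, 240.2 and 156.9, with at most 109.7 elsewhere. Il7r alone was 65.5, 66.8, 133.2 and 80.6 in these 4 libraries and at most 24.3 elsewhere. The markers other than Il7r were not summed, so the sum does not show more cells of that type. The results they enter most are also given without them, and no label names a batch.

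In control NK cells the activating receptors were the most abundant members. Per kb of exon, Klra4 stood first at 1149.8 ± 178.1 normalized CPM per kb (SD, n = 4), followed by Klra8 at 837 ± 140.5, Klra7 at 552 ± 119 and Klra9 at 345 ± 100.04. Klra3, Klra1, Klra6 and Klra5 came next, at 178 ± 51.9, 113 ± 24.5, 22.7 ± 6.69 and 13.7 ± 5.06. Klra17 (0.453) and Klra2 (0.0118) were hardly read at all. Klra7 lay above Klra9, Klra1 above Klra6 and Klra5 above Klra17 without overlap between libraries, while the other neighbours in this order overlapped, by exon length. Divided by the length found in no other gene, Klra8 (1306 normalized CPM per kb) came before Klra4 (1256), with overlapping libraries. By that length Klra7 overlapped Klra9, and Klra4 and Klra7, Klra9 and Klra3, and Klra3 and Klra1 did not overlap, so the order of the activating pair and the overlaps depend on the length used.

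**Figure D1:**
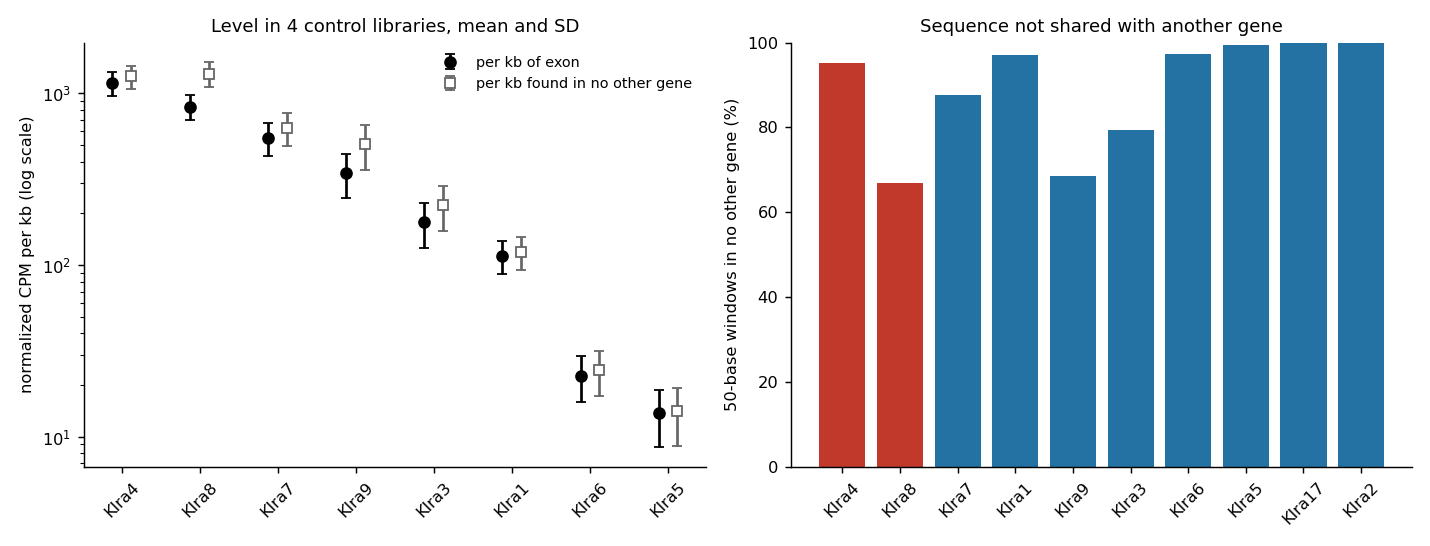
Left, level of 8 Ly49 genes in the 4 control libraries (mean and SD, normalized CPM per kb on a log scale), per kb of exon and per kb of sequence found in no other gene. Right, percentage of 50-base windows of each gene found in no other gene, with activating members in red and inhibitory members in blue, where Klra8 has the lowest share at 66.9%.

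Among the activating receptors, Klra4 was 1602, 1398, 1595 and 1131 normalized CPM in controls, 1264, 1311 and 1379 in early RMA and 995, 1324 and 1196 in early RMA-KR libraries. At the intermediate stage it was 1249, 849 and 936 for RMA and 1304, 1474, 976, 978 and 1194 for RMA-KR. Late libraries had 1584, 1544 and 1425 for RMA and 2036, 1461 and 1401 for RMA-KR. RMA-KR late 1 was the highest library and RMA intermediate 2 the lowest. Every tumor group overlapped the controls in Klra4. No library had fewer than 8169 reads of this gene, which encodes Ly49D.

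Klra8 encodes Ly49H. Its level was 1149, 928, 1087 and 781 normalized CPM in controls, 964, 831 and 948 in early RMA and 764, 992 and 869 in early RMA-KR libraries. Intermediate libraries had 599, 522 and 611 for RMA and 864, 974, 547, 524 and 547 for RMA-KR. Late libraries had 757, 749 and 838 for RMA and 1158, 734 and 951 for RMA-KR. The 3 RMA intermediate libraries were all below the controls. In RMA-KR intermediate mice the 3 libraries low in immediate early genes (3, 4 and 5) were low in Klra8 as well, while RMA-KR intermediate 1 and 2 lay within the control range. All other groups overlapped the controls.

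Klra7 encodes the inhibitory receptor Ly49G, which binds H-2Dd. Its level was 623, 710.1, 903 and 555 normalized CPM in controls, 601, 809 and 683 in early RMA and 664, 965 and 879 in early RMA-KR libraries. Midway it was 1206, 673 and 869 for RMA and 827, 863, 602, 609 and 638 for RMA-KR. Late libraries had 1883, 1812 and 1495 for RMA and 1784, 1243 and 1142 for RMA-KR. All late libraries of both tumors lay above all controls, and above the early libraries of the same tumor. RMA intermediate 1 was also above the controls, whereas RMA intermediate 2 and 3 were within their range.

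Klra1 encodes the inhibitory receptor Ly49A, another receptor for H-2Dd. Its level was 159, 236, 236 and 164 normalized CPM in controls, 214, 207 and 206 in early RMA and 159, 221 and 248 in early RMA-KR libraries. In intermediate libraries it was 294, 175 and 262 for RMA and 157, 238, 186, 152 and 156 for RMA-KR. Late libraries had 479, 423 and 266 for RMA and 210.0, 235 and 183 for RMA-KR. The 3 late RMA libraries lay above all controls, RMA late 3 only by a small margin, and late RMA-KR libraries stayed within the control range.

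Klra9 and Klra3 encode Ly49I and Ly49C, inhibitory receptors for H-2Kb, a class I molecule of C57BL/6J mice that RMA carries and RMA-KR lacks at its surface. Klra9 was 405, 538, 548 and 277 normalized CPM in controls, 436, 453 and 417 in early RMA and 442, 483 and 478 in early RMA-KR libraries. Midway the values were 402, 306 and 391 for RMA and 469, 581, 174, 164 and 160.3 for RMA-KR. Late libraries had 365, 405 and 409 for RMA and 368, 266 and 291 for RMA-KR. Its lowest libraries were again RMA-KR intermediate 3, 4 and 5, and every group overlapped the controls. Klra3 ranged from 133.7 to 294.3 normalized CPM over the 24 libraries, and its groups overlapped the controls as well.

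**Figure D2:**
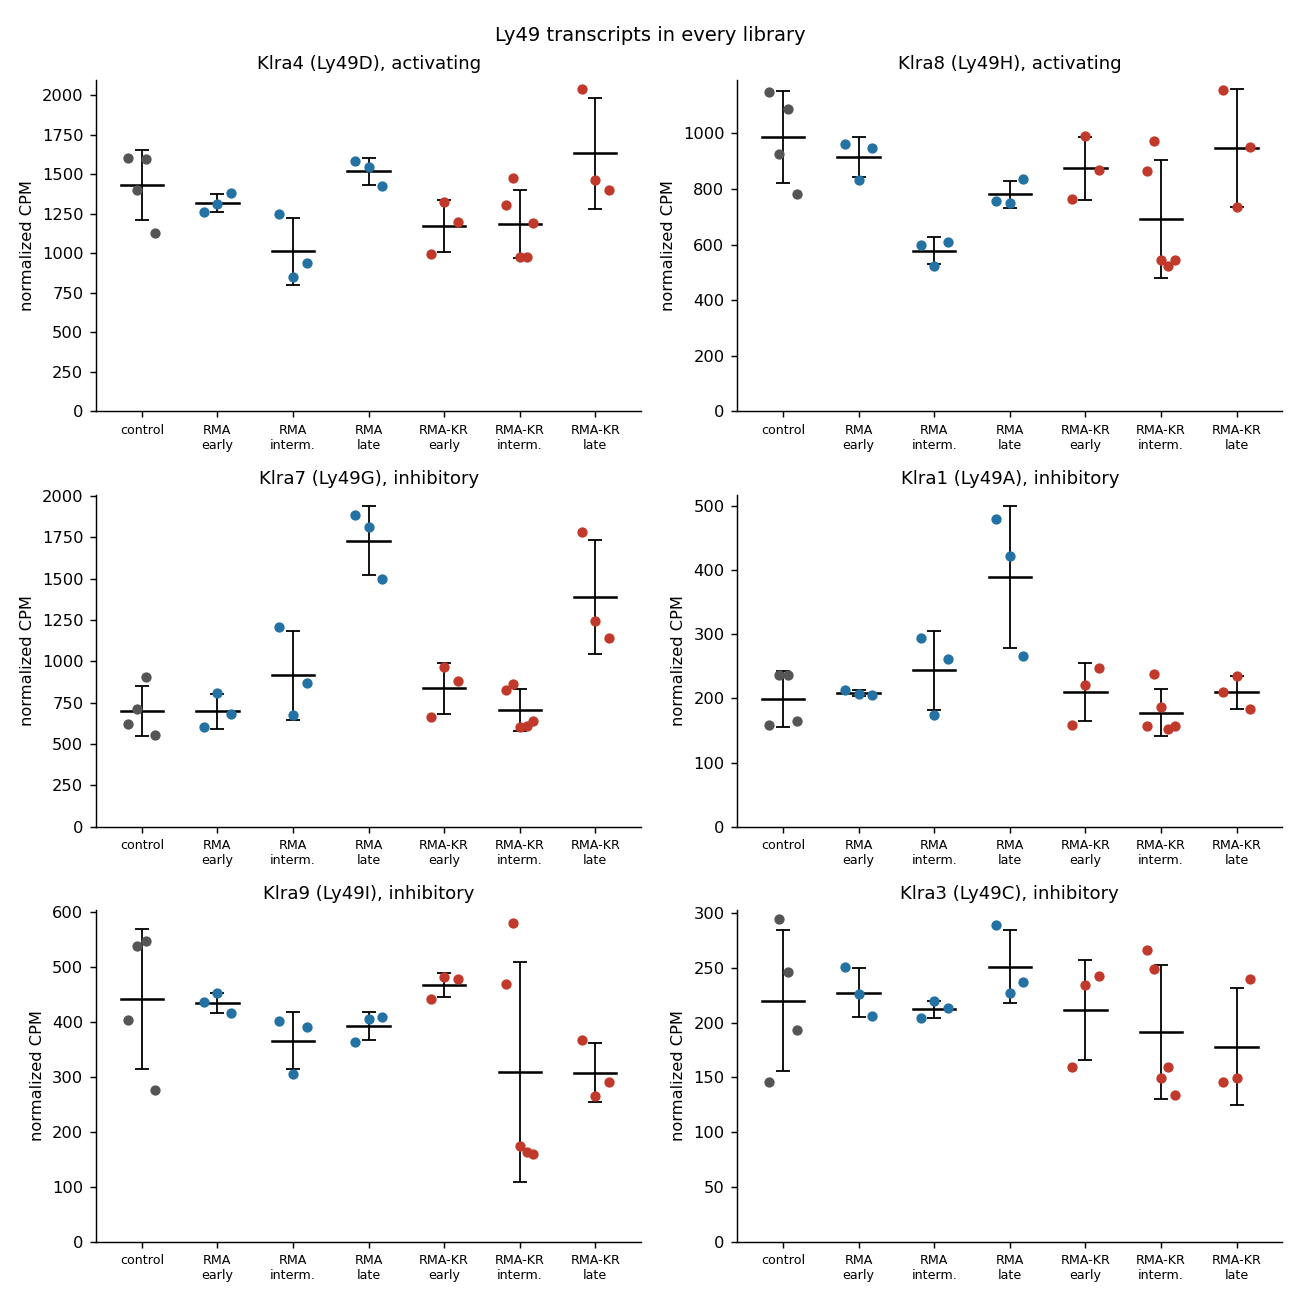
Normalized CPM of 6 Ly49 genes in each of the 24 libraries. Points are libraries, lines and bars the mean and SD of a group of 3 to 5, with controls in grey, RMA in blue and RMA-KR in red, where the late groups stand above the controls in Klra7, and RMA late alone does so in Klra1.

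The remaining inhibitory members were rare. Klra5, the gene of Ly49E, a receptor known from fetal NK cells, ranged from 2.78 to 49.3 normalized CPM, and Klra6 (Ly49F) from 2.06 to 51.3. RMA early 2 was the lowest library for both. Klra17 (Ly49Q, known from plasmacytoid dendritic cells and neutrophils) had 0 counts in 12 libraries and at most 49. Klra2 (Ly49B, known from myeloid cells) had 0 counts in 13 libraries and at most 24, and was too rare to be tested. A count of 0 allows a level of up to 0.202 to 0.584 CPM, depending on the library's total and for counting error only. Klra17 passed the filter on low counts but its fold changes are not given, because 15 libraries had at most 3 counts.

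The comparisons with control mice ask whether NK cells change their Ly49 transcripts while a tumor grows. Each used edgeR on all 17097 genes with enough counts, and calls needed more than a 2-fold change together with a Benjamini-Hochberg adjusted p below 0.05. In bulk RNA, fewer cells that carry a receptor and less of its RNA per cell cannot be told apart. All 6 comparisons share the same 4 controls. How often groups fail to overlap was not counted over all genes, so a lack of overlap is a description only, here and below. TMM left the median log2 fold change of all tested genes at −0.29 in RMA intermediate, −0.18 in RMA late and −0.18 in RMA-KR late mice, and changes are to be read against those medians.

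In mice with early RMA tumors the Ly49 family was close to control. Klra7 had 698 ± 105 normalized CPM (SD, n = 3) against 698 ± 151 normalized CPM (SD, n = 4), and Klra4 had 1318 ± 57.7 against 1432 ± 222 normalized CPM. The edgeR test called 0 of 9 tested members, where it called 0% of all genes. At an unadjusted p under 0.05 it found 0 members and 1204 genes, and DESeq2 called 0 members and 66 genes with default settings or 24 with a prior on the fold changes. Leaving Klra17 aside, the lowest adjusted p of a member was 0.933. In early RMA-KR mice edgeR again called 0 of 9 members, against 0.0819% of all genes. At an unadjusted p under 0.05 it found 0 members and 1490 genes, and DESeq2 called 0 members, against 147 of 13583 genes by default. The lowest adjusted p there was 0.671.

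At the intermediate stage of RMA growth, transcripts of the activating receptor Ly49H were below control, while those of Ly49D overlapped it. Klra8 (Ly49H) had 578 ± 48.2 normalized CPM (SD, n = 3) against 986 ± 166 normalized CPM (SD, n = 4), with all 3 libraries below all 4 controls (log2 fold change −0.77, SE 0.20, adjusted p = 0.0428). Klra4 (Ly49D) had 1012 ± 211 normalized CPM (SD, n = 3) against 1432 ± 222 in controls, and its groups overlapped (log2 fold change −0.50, SE 0.17, adjusted p = 0.157). The median log2 fold change was −0.64 over these 2 genes and 0.05 over the 6 inhibitory members with more than 3 counts in every library. Klra8 passed the adjusted p but not the 2-fold threshold. Called members numbered 0 of 9 by edgeR, against 1.65% of all genes, and 0 by DESeq2, against 663 of 16021 genes by default. In edgeR 2 of 9 members and 2726 of 17097 genes had an unadjusted p under 0.05. With the adjusted p alone 1 of 9 members passed, against 2.35% of genes. The Klra8 result needed nearly all libraries. Leaving out control 1, 2 or 3 or RMA intermediate 1, 2 or 3 took its adjusted p to between 0.0583 and 0.288. The sum of plasmacytoid dendritic cell markers, mostly Irf7, was 372.4, 406.1 and 367.3 normalized CPM in these RMA intermediate libraries and at most 246.7 in controls. Siglech, Ccr9, Pacsin1 and Spib were at the floor. Only 3 of the 7 tested markers of that list had a positive log2 fold change, with a median of −0.13 against −0.29 over all genes. The part of such cells in the Klra8 level was not tested. Without the 4 libraries low in immediate early genes Klra8 was at −0.85 (adjusted p = 0.00939), and over the other alternatives its adjusted p ran from 0.00425 to 0.0324.

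In mice with late RMA tumors the inhibitory receptor Klra7 (Ly49G) rose, to 1729.8 ± 207 normalized CPM (SD, n = 3) from 698 ± 151 in 4 controls. All 3 late libraries lay above every control (log2 fold change 1.31, SE 0.21, adjusted p = 0.00103). Klra1 (Ly49A) was higher too, at 389 ± 110.3 normalized CPM (SD, n = 3) against 199 ± 43.3 normalized CPM (SD, n = 4), again with no overlap, but stayed under the 2-fold threshold (log2 fold change 0.97, SE 0.22, adjusted p = 0.0158). The rarer Klra6 had 47.0 ± 4.51 normalized CPM (SD, n = 3) against 25.3 ± 7.46 normalized CPM (SD, n = 4), without overlap and without passing (log2 fold change 0.90, SE 0.59, adjusted p = 0.533). Neither the activating receptors nor Klra9 passed. Klra4 stood at 0.08, Klra8 at −0.34 and Klra9 at −0.17 on the log2 scale. Klra9 moved to −0.37 without control 4 and to between −0.09 and −0.0745 without control 2, control 3 or RMA late 1. The median log2 fold change was −0.13 over the 2 activating genes and 0.64 over the 6 inhibitory members above the floor. EdgeR called 1 of 9 members, against 1.79% of all genes. DESeq2 called 1 member as well, against 624 of 11897 genes with default settings and 529 of 11897 with a prior. With the adjusted p alone 2 of 9 passed in edgeR, against 2.66%. Klra7 kept its call without any 1 of the 7 libraries (1.19 to 1.44) and without the 4 libraries low in immediate early genes (1.22, adjusted p = 0.0071). Klra1 no longer passed without control 1 (adjusted p = 0.075), control 4 (0.0798), RMA late 1 (0.138) or RMA late 2 (0.0962), nor without those 4 libraries (0.0809). Its adjusted p over all other alternatives ran from 0.00148 to 0.066.

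Summed markers of some other cells were higher in late RMA mice as well. The macrophage and monocyte sum was 34.0 to 51.0 normalized CPM in late RMA and 8.74 to 18.5 in control libraries, mostly from Cd68, with 8 of 10 markers at the floor, among them Csf1r, Adgre1 and C1qa. The sum for plasmacytoid dendritic cells was 318.4 to 432.6 against 202.6 to 246.7, mostly from Irf7, with Siglech, Ccr9, Pacsin1 and Spib at the floor. Only 3 of the 7 tested markers of that list had a positive log2 fold change in RMA late mice. Their median was −0.48, against −0.18 over all genes, so the higher sum was not shared by most of the list. The NK marker sum of 30369 to 36180 overlapped the control range of 22343 to 32401, although Eomes, 1 of the 8 NK markers, was lower in RMA late mice. In RMA-KR late libraries the macrophage sum was 36.2 to 80.1 and the plasmacytoid sum 249.7 to 326.1, also above all controls. There 5 of the 7 tested plasmacytoid markers had a positive log2 fold change, with a median of 0.54. Trac was 14.9 to 19.9 in RMA-KR late libraries and at most 13.3 in controls. Most of the T cell list went the other way. Of its 7 tested genes 2 had a positive log2 fold change, with a median of −0.40 against −0.18 over all genes. The part of other cells in the Klra7 levels was not tested.

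In NK cells from mice with RMA-KR tumors, activating transcripts overlapped the controls and Klra7 was higher at the late stage. Klra7 had 1389.5 ± 345 normalized CPM (SD, n = 3), again above every control (log2 fold change 0.99, SE 0.21, adjusted p = 0.0151), which is just under the 2-fold threshold. Klra1 had 209 ± 26.0 normalized CPM (SD, n = 3), within the control range (log2 fold change 0.08). For Klra4 and Klra8 the log2 fold changes were 0.19 and −0.06, and for Klra9 it was −0.52 (SE 0.35, adjusted p = 0.492). The median was 0.07 over the activating genes and 0.18 over the 6 inhibitory members. Called members numbered 0 of 9 in edgeR, against 0.983% of all genes. At an unadjusted p under 0.05 there were 1 of 9 members and 2430 of 17097 genes. DESeq2 called 1 with default settings, against 483 of 16021 genes, and 0 with a prior on fold changes, against 359 of 11897. With the adjusted p alone 1 of 9 passed, against 1.22% of genes. The Klra7 result was lost without RMA-KR late 1 (0.76, adjusted p = 0.148) and without control 1 (0.0566), control 2 (0.0529) or control 4 (0.0733), and without the 4 libraries low in immediate early genes (0.94, adjusted p = 0.0529). Over all other alternatives its adjusted p ran from 2.22e-06 to 0.0695.

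At the intermediate RMA-KR stage, Klra8 had 691 ± 212 normalized CPM (SD, n = 5) and Klra9 309.5 ± 200.4 normalized CPM (SD, n = 5), each with a wide spread. Called members numbered 0 of 9 in edgeR, against 0.0175% of all genes, and 0 in DESeq2, against 25 of 11026 genes by default. In edgeR 1 of 9 members and 1011 of 17097 genes were at an unadjusted p under 0.05. The log2 fold change of Klra8 was −0.51 (SE 0.17, adjusted p = 0.675) and that of Klra9 −0.51 (SE 0.30, adjusted p = 0.943). Without the 4 libraries low in immediate early genes they were −0.18 and 0.10, so that these differences rest on those libraries.

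**Figure D3:**
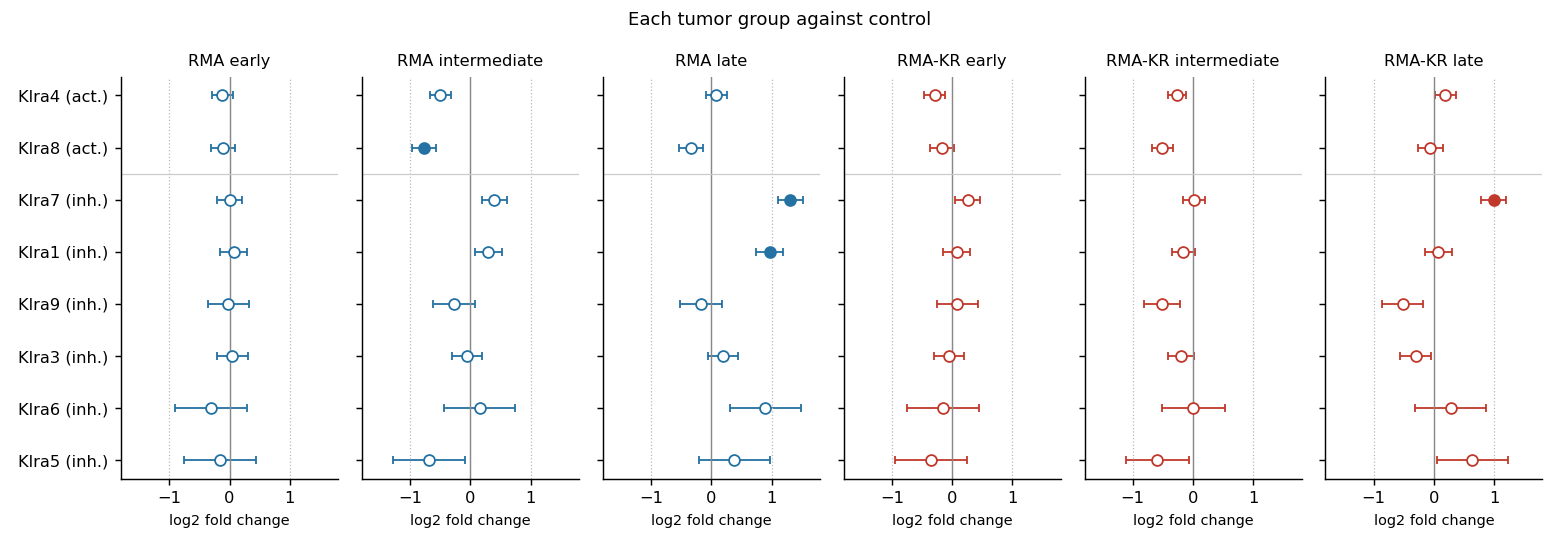
Log2 fold change of 8 Ly49 genes in each tumor group against control, with bars of 1 SE, activating genes above the line and inhibitory genes under it. Dotted lines mark 2-fold, and filled points have an adjusted p under 0.05, as Klra8 in RMA intermediate, Klra7 and Klra1 in RMA late and Klra7 in RMA-KR late.

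RMA-KR was set against RMA to see how Ly49 transcripts differ between these tumors. The lines differ in MHC class I and in the added Rae1-β, and RMA-KR stands for 1 clone. Effects of these cannot be told apart. Early, when both tumors had grown for 2 days, Klra7 had 836 ± 155 normalized CPM (SD, n = 3) with RMA-KR and 698 ± 105 normalized CPM (SD, n = 3) with RMA. Activating Klra4 had 1172 ± 166 and 1318 ± 57.7 normalized CPM. EdgeR called 0 of 9 members, against 0.304% of all genes, with 0 members and 2101 genes at an unadjusted p under 0.05. DESeq2 called 0, against 338 of 13583 genes by default. Leaving Klra17 aside, the lowest adjusted p in edgeR was 0.684.

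Midway, Klra8 had 691 ± 212 (SD, n = 5) with RMA-KR and 578 ± 48.2 (SD, n = 3) normalized CPM with RMA, with overlap (log2 fold change 0.26, against a median of 0.23 over all genes). Without the libraries low in immediate early genes it was 0.67 (adjusted p = 0.111), and it was 0.16 without RMA intermediate 2, 0.17 without RMA-KR intermediate 1 and 0.13 without RMA-KR intermediate 2. Called were 0 of 9 members by edgeR, against 0.503% of all genes, and 0 by DESeq2, against 340 of 16845 genes by default. In edgeR 1 of 9 members and 2427 of 17097 genes had an unadjusted p under 0.05. Late, Klra1 was lower in all 3 RMA-KR libraries than in all 3 RMA libraries (log2 fold change −0.89, SE 0.24, adjusted p = 0.655), which did not pass. It was 1 of 9 tested members without overlap there, and the share of all genes without overlap was not counted. Klra7 was high with both (log2 fold change −0.32, or −0.54 when RMA-KR late 1 was left out and −0.18 when RMA-KR late 3 was). In that comparison edgeR called 0 of 9 members, and 0% of all genes, with 1 member and 1249 genes at an unadjusted p under 0.05. DESeq2 called 0 members, and 56 genes with default settings or 12 with a prior. That Klra1 passed the adjusted p against control with RMA and not with RMA-KR is therefore no tested difference between the tumors.

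Over the growth of a tumor, Klra7 rose from early to late RMA mice, from 698 ± 105 to 1729.8 ± 207 normalized CPM, with all late above all early libraries (log2 fold change 1.31, SE 0.23, adjusted p = 0.00295). Klra1 was higher in all 3 late libraries as well (log2 fold change 0.90, SE 0.24, adjusted p = 0.0436), and so was Klra6 (log2 fold change 1.21, SE 0.64, adjusted p = 0.337), which was at 0.67 without RMA early 2 and at 1.74 without RMA early 1. Activating Klra4 also lay above all early libraries (0.20, adjusted p = 0.6), and inhibitory Klra9 below all of them (−0.15, adjusted p = 0.881). EdgeR called 1 of 9 members, against 2.01% of all genes. DESeq2 called 1, against 972 of 14393 genes with default settings and 773 of 14393 with a prior. With the adjusted p alone 2 of 9 passed, against 2.87%. Leaving out each library in turn kept the Klra7 call (1.22 to 1.43), while Klra1 passed only without RMA late 3 (adjusted p = 0.0144) and otherwise had 0.0918 to 0.215. Klra1 also lost it with DESeq2 size factors (0.0573) and with only the groups compared (0.159). A fit to these 6 libraries alone gave Klra7 1.27 (adjusted p = 0.0901), where 1 gene was called in all. Over the other alternatives its adjusted p ran from 1.52e-09 to 0.00696.

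In RMA-KR mice, Klra7 had 836 ± 155 normalized CPM early and 1389.5 ± 345 late, with no overlap (log2 fold change 0.73, SE 0.22, adjusted p = 0.166). Klra4 was higher in all 3 late than in all 3 early libraries (log2 fold change 0.48, SE 0.18, adjusted p = 0.27), at 0.28 without RMA-KR late 1. Klra9 was lower in all 3 late libraries (log2 fold change −0.60, SE 0.37, adjusted p = 0.433). None of these passed, although Klra7 had an adjusted p of 0.0135 without the filter on low counts. Called members numbered 0 of 9 in edgeR, against 0.322% of all genes, and 0 in DESeq2, against 498 of 15211 genes by default. In edgeR 2 of 9 members and 2559 of 17097 genes had an unadjusted p under 0.05.

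The balance of activating and inhibitory receptors was read inside each library, where the total count cancels. Of all reads on the 10 members, Klra4 and Klra8 took 66.5%, 56.2%, 57.5% and 60.8% in controls, 58.7%, 55.8% and 59.9% in early RMA and 54.9%, 54.3% and 52.2% in early RMA-KR libraries. Midway they were 46.2%, 49.4% and 46.5% with RMA and 55.2%, 55.2%, 57.0%, 57.4% and 61.0% with RMA-KR. Late, they were 43.1%, 43.9% and 47.6% with RMA and 55.1%, 52.8% and 55.7% with RMA-KR. The RMA intermediate and late libraries were the only groups in which inhibitory reads, not divided by length, outnumbered activating ones in every library. They overlapped neither the controls nor the RMA-KR libraries of the same stage. Early and late RMA-KR libraries lay below all controls too, by less, whereas early RMA and intermediate RMA-KR libraries overlapped them. Wilson 95% confidence intervals of these shares were 0.764 to 1.28 percentage points wide, for counting error only.

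As group means the activating share was 60.2% ± 4.59 (SD, n = 4) in controls, 47.4% ± 1.76 (SD, n = 3) in RMA intermediate, 44.9% ± 2.41 (SD, n = 3) in RMA late and 54.5% ± 1.51 (SD, n = 3) in RMA-KR late mice. The ratio of activating to inhibitory reads went with it, at 1.54 ± 0.316 in controls, 0.901 ± 0.0647 and 0.816 ± 0.0812 in RMA intermediate and late, and 1.20 ± 0.0722 in RMA-KR late mice. In RMA intermediate mice Klra7 itself did not pass and the level of Klra8 was lower, whereas in RMA late mice Klra7 rose. Reads divided by exon length gave 62.0%, 49.2%, 46.7% and 56.1% in the same order of groups, and RMA intermediate 2 was then at 51.2%, so that activating members led in that library. Shares by the length found in no other gene, of which Klra8 has the least at 66.9%, were not computed. Which side leads in RMA intermediate mice therefore depends on the length used. No test was made of these shares, because the members were chosen with results known. Without the 4 libraries low in immediate early genes the controls had 60.1% (3 libraries) and RMA-KR intermediate mice 55.2% (2 libraries), below all controls left.

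**Figure D4:**
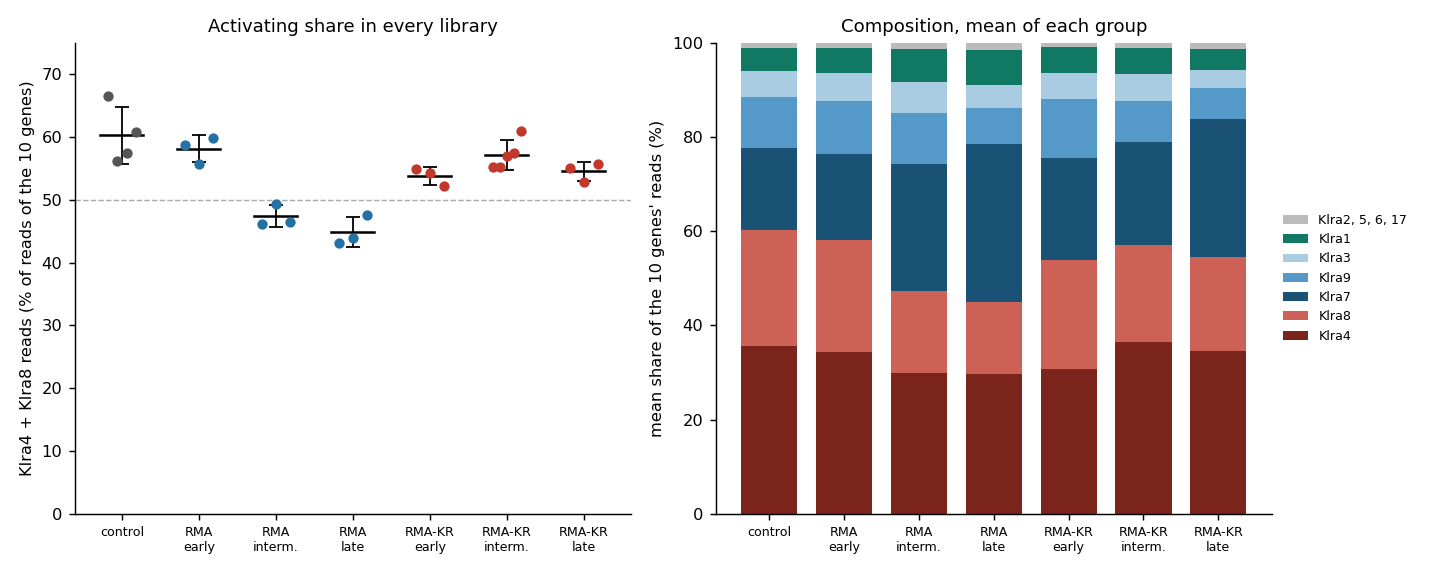
Left, reads of Klra4 and Klra8 as a percentage of the reads of all 10 genes in each library (points), with the mean and SD of each group and a dashed line at equal activating and inhibitory reads. Right, mean share of each gene by group, where Klra7 widens from 17.3% in controls to 33.6% in RMA late.

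In RMA intermediate and late mice, Klra7 and Klra8 differed most from control in their shares. Klra7 took 17.3% ± 1.77 (SD, n = 4) of member reads in controls, 26.8% ± 3.01 (SD, n = 3) in RMA intermediate, 33.6% ± 1.86 (SD, n = 3) in RMA late and 29.2% ± 1.97 (SD, n = 3) in RMA-KR late mice, with no overlap with controls in any of these. Early and intermediate RMA-KR mice were above all controls as well, with means of 21.8% and 21.7%. For Klra8, controls had 24.6% ± 2.35 (SD, n = 4), RMA intermediate mice 17.4% ± 2.10 (SD, n = 3) and RMA late mice 15.3% ± 2.02 (SD, n = 3), also without overlap. RMA-KR intermediate mice had 20.7% ± 1.24 (SD, n = 5), below all controls too. Klra4 held 35.7% in controls and 29.6% in RMA late mice, without overlap, and 34.5% in RMA-KR late mice, with overlap. Klra9 held 10.8% in controls, 7.69% in RMA late and 6.54% in RMA-KR late mice, with no overlap in either. Shares of a whole are tied, so that more or less RNA of any member moves the shares of the others. The 10 members together took 0.409% ± 0.0549 of all counts in controls and 0.486% ± 0.0237 in RMA late mice. These groups failed to overlap only by a very small margin, with 0.4612% in RMA late 3 and 0.4602% in control 3. The members took 0.319% in RMA intermediate, 0.336% in RMA-KR intermediate and 0.459% in RMA-KR late mice, with overlap.

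The order of the receptors changed with it. Per kb of exon, Klra7 stood above Klra4 in 3 of 3 RMA late libraries (means 1367 ± 163.4 and 1219 ± 66.5 normalized CPM per kb) and in 0 of 4 controls, and in 0 of 3 RMA-KR late libraries. Above Klra8 it stood in 3 of 3 late libraries of either tumor, 3 of 3 RMA intermediate and 3 of 5 RMA-KR intermediate libraries, and in 0 of 4 controls. Per kb found in no other gene, it was above Klra8 in 3 of 3 RMA late, 2 of 3 RMA-KR late, 1 of 3 RMA intermediate and 0 of 5 RMA-KR intermediate libraries, and in 0 of 4 controls. By that length Klra7 was above Klra4 again in 3 of 3 RMA late libraries, 0 of 3 RMA-KR late libraries and 0 of 4 controls. By the deposited median transcript length, it was above Klra4 in 2 of 3 RMA intermediate and 2 of 3 RMA-KR late libraries as well. Per kb of exon and per kb found in no other gene, the RMA late libraries overlapped between Klra7 and Klra4. By the deposited length they did not.

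The 4 other Klra genes are pseudogenes or little-read copies of the same cluster, and how far reads of the pseudogenes stem from the receptor genes they resemble was not tested. Klra13-ps, which shares sequence with Klra7, had 1439.9, 579.7, 1266 and 745 normalized CPM in controls, 200.2, 400.5 and 141 in RMA intermediate and 475, 553 and 766 in RMA late libraries. RMA-KR libraries had 576, 874, 451, 516 and 524 at the intermediate and 1284, 433 and 1146 at the late stage. All 3 RMA intermediate libraries were below every other library, controls included. Klra13-ps fell there by 2.03 on the log2 scale (SE 0.38, adjusted p = 0.00474), and the call held without any 1 of the 7 libraries (−2.53 to −1.72) and without the 4 libraries low in immediate early genes (−2.15, adjusted p = 0.011). In the same mice Klra7 was not lower, at 0.39 on the log2 scale. Klra14-ps, which shares sequence with Klra8, had 191, 144 and 178 in RMA intermediate and 276, 322, 329 and 237 in control libraries, without overlap (log2 fold change −0.77, SE 0.21, adjusted p = 0.0475). It passed only without control 4 (adjusted p = 0.0403) when single libraries were left out, and lost the adjusted p without the filter on low counts (0.126). It passed without the 4 libraries low in immediate early genes (−0.84, adjusted p = 0.0144). Klra10 had 5.03, 6.47 and 2.75 against 14.0 ± 4.26 normalized CPM in controls, without overlap (log2 fold change −1.55, SE 0.52, adjusted p = 0.143), and Klra11-ps ranged from 0.802 to 6.28 over all libraries. Klra10 passed in DESeq2 (adjusted p = 0.00815). Of these 4 genes Klra13-ps was the only one that edgeR called, and only there.

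**Figure D5:**
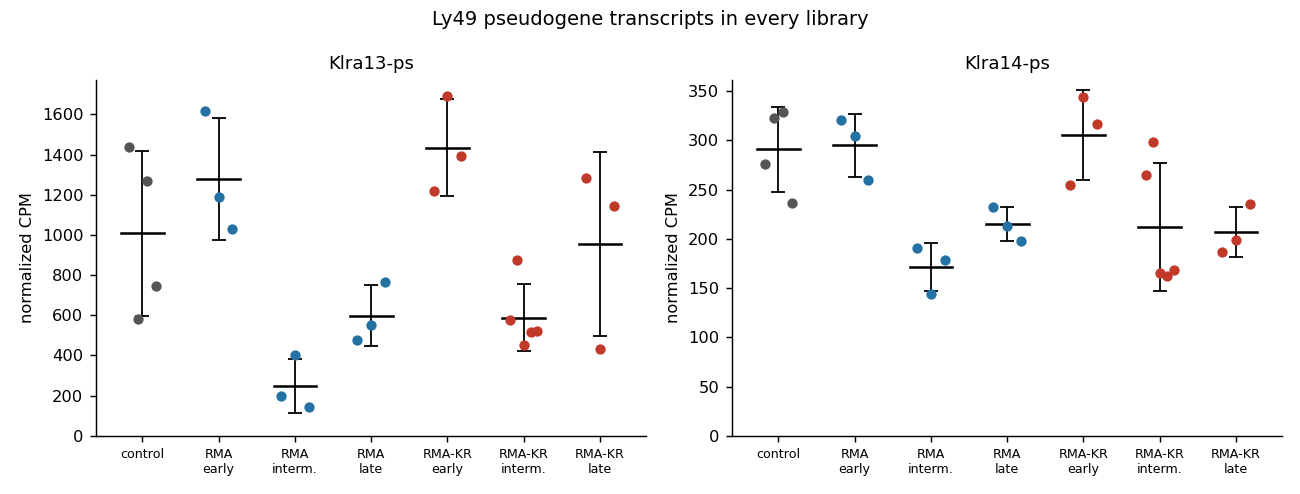
Normalized CPM of the pseudogenes Klra13-ps and Klra14-ps in each library (points), with the mean and SD of each group, coloured as controls grey, RMA blue and RMA-KR red. The RMA intermediate libraries hold the lowest Klra13-ps levels, at 140.6 to 400.5.

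Partners of the receptors were read from gene lists. The list of adaptors and kinases of activating Ly49 receptors holds Tyrobp and Hcst with kinases such as Syk, Zap70 and Lck, and all 15 of its genes were tested. None was called in any of 11 comparisons by edgeR, where the share of all genes called ran from 0% to 2.01%. The median log2 fold change of the list was −0.09 in RMA late and −0.16 in RMA-KR late mice, against −0.18 over all genes in each. In RMA-KR late mice, where 5 of the 15 genes had a positive value, Tyrobp and Hcst lay below all controls. Tyrobp was 931.8 to 1236.3 against 1270.3 to 1825.8 normalized CPM, and Hcst 57.3 to 93.4 against 97.6 to 146.7. Neither passed the adjusted p, and both overlapped the controls in RMA late mice. These values were singled out after they were seen. With the adjusted p alone 1 of the 15 passed, and only from early to late RMA, against 2.87% of all genes. It was Zap70 (0.77, SE 0.17, adjusted p = 0.0171), singled out after its value was seen. With single libraries left out it passed only without RMA early 2 or RMA late 3, and it was lost without the filter on low counts (0.0606) and with only the groups compared (0.174). Of the phosphatases and brakes of inhibitory receptors, such as Ptpn6 and Inpp5d, 0 of 8 tested genes were called in any comparison. The medians of this list were −0.20 in RMA late and −0.20 in RMA-KR late mice.

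MHC class I itself, the ligand of most inhibitory Ly49 receptors, is also made by NK cells. None of H2-K1, H2-D1 and B2m was called, but in late RMA mice H2-K1 (0.51, SE 0.12, adjusted p = 0.0204) and B2m (0.73, SE 0.19, adjusted p = 0.0368) passed the adjusted p against control, and their 3-gene median was 0.51. From early to late RMA, H2-K1 (0.56, SE 0.13, adjusted p = 0.0205) and H2-D1 (0.63, SE 0.16, adjusted p = 0.0354) passed it. There H2-K1 kept it only without RMA early 2 or RMA late 3, and H2-D1 only without RMA late 3, and with only the groups compared both lost it (0.164 and 0.132). In RMA-KR late mice 0 of 3 passed, with a median of 0.36. These genes were singled out after their values were seen. When single libraries were left out, H2-K1 and B2m kept an adjusted p under 0.05 against control only without control 3 or RMA late 3. Without the 4 libraries low in immediate early genes, H2-K1 had an adjusted p of 0.0315 and B2m of 0.151, and B2m had 0.0698 with only the groups compared.

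Other lectin receptors of the NK gene complex moved in single genes. Of 16 tested, Klrc2, which encodes the activating receptor NKG2C, fell in RMA intermediate mice to 292.4 ± 32.7 from 607.5 ± 177.3 normalized CPM in controls, with no overlap (log2 fold change −1.05, SE 0.23, adjusted p = 0.0141). Klrg1, an inhibitory receptor of mature NK cells, rose in RMA late mice to 978.5 ± 113.2 from 431.4 ± 145.1, also with no overlap (log2 fold change 1.18, SE 0.32, adjusted p = 0.0489). The median log2 fold change of the 16 genes was −0.38 in RMA intermediate and 0.0029 in RMA late mice. Klrc2 lost its adjusted p without control 3 (0.0572), RMA intermediate 2 (0.105) or RMA intermediate 3 (0.129). Klrg1 passed only without control 3 (0.0455) and otherwise had 0.0817 to 0.197 with a library left out. Without the 4 libraries low in immediate early genes Klrc2 was at −1.16 (adjusted p = 0.00476) and Klrg1 at 1.03 (0.0229). Another alternative, given with the other settings tried, took the adjusted p of Klrg1 to 0.0901. Klrc2 has close paralogs, and its shared sequence was not measured.

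Of 10 regulators known to act in Ly49 acquisition or NK cell maturation, Tox rose in RMA-KR late mice, to 142.5 ± 22.6 from 69.7 ± 6.87 normalized CPM with no overlap (log2 fold change 1.03, SE 0.21, adjusted p = 0.0131), and was the only gene called. It lost the adjusted p without control 2 (0.0529), control 3 (0.054) or RMA-KR late 1 (0.101), and kept it without the 4 libraries low in immediate early genes (1.12, adjusted p = 0.0419), but not without the filter on low counts (0.0711). Eomes, singled out after its value was seen, was lower in RMA late mice than in controls (−0.75, SE 0.19, adjusted p = 0.0352) and than in RMA early mice (−0.79, SE 0.20, adjusted p = 0.0377), without reaching 2-fold. With single libraries left out, the second result was lost in 6 of 6 fits (adjusted p 0.0518 to 0.227), and it was also lost without the filter on low counts (0.137) and with only the groups compared (0.146). Against control it kept the adjusted p only without control 2 or 3 and lost it without the 4 libraries low in immediate early genes (0.0771) and without the filter (0.136). The list median was −0.33 in RMA late and 0.03 in RMA-KR late mice. Of the cell type lists, only Bst2 was called, higher in RMA intermediate (2.09, SE 0.38, adjusted p = 0.00383) and RMA late mice (1.78, SE 0.38, adjusted p = 0.00975) than in controls and lower in RMA-KR than in RMA intermediate mice (−1.52, SE 0.35, adjusted p = 0.0437). The call in RMA late mice was lost without RMA late 2 (adjusted p = 0.0947), and that between the tumors without any 1 of the 8 libraries. Without the 4 libraries low in immediate early genes the values were 2.12 (adjusted p = 0.011), 1.79 (0.0249) and −2.27 (0.0349) in the same order. The last of these results was also lost with DESeq2 size factors (0.0537) and with only the groups compared (0.0553). Bst2 marks plasmacytoid dendritic cells and is also an interferon-induced gene.

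Over the 24 libraries the activating genes went together, with a Pearson r of 0.76 and a Spearman rho of 0.676 between Klra4 and Klra8 on log2 CPM, and r of 0.777 within groups. This was not particular to that pair, since Klra8 had r = 0.689 with inhibitory Klra9 (0.858 within groups), 0.768 with Klra14-ps, which shares its sequence, and 0.748 with Klra13-ps. Among 8290 genes, those most like Klra4 were Ramac (r = 0.796), Gmfg (0.792), Klra8, the Fc receptor gene Fcgr3 (0.751) and Supt4a (0.713). Those most like Klra8 were Stx5a (0.869), Add3 (0.859), Klhl24 (0.853), Mat2b (0.846) and Wdr45 (0.838). Among inhibitory members, Klra1 and Klra7 had r = 0.757, Klra5 and Klra6 0.782, and Klra3 and Klra9, which share sequence, 0.659. Klra7 had r = 0.616 with Klra4 over all libraries and 0.869 within groups, and 0.2 with Klra8 over all libraries and 0.601 within groups. Without the 2 libraries farthest out, r between Klra4 and Klra8 was 0.677. These libraries share their groups and the 4 libraries low in immediate early genes, and the values are a description over 24 points.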

How the data were processed

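Poly(A) RNA of sorted spleen NK cells was sequenced by the authors as single-end reads. They trimmed reads with cutadapt 1.10, removed ribosomal reads with Bowtie2 2.2.8, aligned the rest to mm10 with STAR 2.5.3a and counted them with HTSeq 0.6.1p1. The deposited values used here are raw counts of reads per gene in 24 libraries, without normalization. The 48 other per-library columns and the 29 columns of the authors' comparisons were not used. The deposited median transcript length, in bases, served as an alternative length. Strandedness of the counting is not stated. Totals ran from 5138651 to 14863500, so that 3 counts correspond to at most 0.584 CPM.

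Analysis used R 4.3.3 with edgeR 4.0.16 (filterByExpr on 7 groups, TMM, robust quasi-likelihood test, 1 mean per group), limma 3.58.1 and DESeq2 1.42.0. Calls needed more than a 2-fold change together with an adjusted p below 0.05. Standard errors were derived from the fold change and the F statistic. Sequences and positions came from GENCODE vM21. The members and gene lists were chosen with earlier results of these data known. Named genes are the 10 members, every other Klra gene, called genes of each list (at most 6 per list), and for Klra4 and Klra8 the 5 genes with the highest Pearson correlation of log2 CPM (prior count 2) among tested genes with a mean log2 CPM above 3. The lists are activating and inhibitory members, adaptors and kinases, phosphatases, MHC class I genes, lectin receptors, regulators, and markers of NK cells, innate lymphoid cells type 1, T cells, B cells, red blood cells, granulocytes, plasmacytoid dendritic cells, and monocytes with macrophages. Alternatives were DESeq2 size factors, no filter, DESeq2 with default settings and with betaPrior, a replicate block, only the groups compared, the adjusted p alone, each library left out, and other lengths. Leaving out 4 libraries low in immediate early genes, the deposited length and the unique windows were added after seeing the data. The procedure was tested on simulated data.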

Additional observations from a re-analysis of the deposited data

Results flagged for a closer look

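Over 30 groups of values with 4 or 5 libraries, 3 held a library far from the rest, all of them in rarely read members. Chance gives about 1 in 20 groups, a rate that was not checked for counts near 0. Where the other libraries of a group are all at 0, any count at all stands apart, so the number flagged says little. Klra2 was at 0.0893 normalized CPM in control 4, from 1 count, and at 0 in the other controls. In RMA-KR intermediate 4 it was at 2.502, with 0 to 0.229 in the others of that group. Klra17 was at 0.91 normalized CPM in RMA-KR intermediate 4 and at 0 in the others. Both libraries belong to the 4 that were low in immediate early genes. The cause was not tested.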

How the results depend on the processing

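The number of members called was tried under each alternative. With the adjusted p alone it was 1 in RMA intermediate, 2 in RMA late, 1 in RMA-KR late and 2 from early to late RMA mice. A fit to only the groups compared gave 2 in RMA late, and 0 from early to late RMA, where 1 gene was called in all. In RMA-KR late mice, DESeq2 size factors, no filter on low counts and default DESeq2 each gave 1 in place of 0. With a library left out the counts ran from 1 to 2 in RMA late, 0 to 1 in RMA-KR late and 1 to 2 from early to late RMA. A replicate block by library number gave the same member counts, 1 in RMA late, 1 from early to late RMA and 0 elsewhere, with 210 in place of 306 genes called in RMA late, and adjusted p of 0.0686 for Klra7 in RMA-KR late, 0.066 for Klra1, 0.0901 for Klrg1, 0.0713 for H2-K1 and 0.081 for B2m in RMA late. It also gave 0.064 for Klra1 from early to late RMA and 0.135 for Bst2 between the tumors at the intermediate stage. Klra9 in RMA late mice was at −0.40 with it in place of −0.17. Over genes, libraries of the same number did not vary together, with a median r of −9e-04 over 64 pairs (−0.18 to 0.24) and of 0.005 over 181 pairs of different numbers (−0.30 to 0.21). Some small values changed sign. Against control, Klra1 in RMA-KR late mice went from 0.08 to −0.0034 with the replicate block, and ran from −0.0216 to 0.20 with a library left out. Klra4 in RMA late mice went from 0.08 to −0.0049 with the block and to −0.0063 without the 4 libraries low in immediate early genes, with −0.0436 to 0.17 when a library was left out. With a library left out, Klra4 in RMA-KR late mice ran from −0.0095 to 0.33 and Klra8 from −0.24 to 0.13. Klra9 in RMA-KR intermediate mice went from −0.51 to 0.10 without those 4 libraries, and to −0.87 without RMA-KR intermediate 2. Activating shares moved by less than 1 SD of their group with only Klra1, Klra3, Klra7 and Klra9 as inhibitory members and without those 4 libraries. The level of Klra1 per kb in control was 185.2 by the deposited length in place of 113. The cause of these differences was not tested.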
